A study of Homo sapiens with 9 samples.

Results

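The expression of 35 genes that build ribosomes was followed in Hep3B cells, a human liver cancer line, by RNA-seq. The genes were chosen by function, by matching their symbols to the deposited count table, and they were 35 of the 60683 genes listed there. They comprise 3 core proteins of the box C/D small nucleolar ribonucleoproteins (snoRNPs), 4 of the box H/ACA snoRNPs, 6 factors of RNA polymerase I transcription, 10 factors of the small-subunit processome and small-subunit maturation, 8 factors of large-subunit assembly, and 4 nucleolar proteins with several roles. All 35 were detected at no fewer than 10 counts in each library, and all were tested.

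Each of 3 groups held 3 cultures, which the labels name biological replicates, and all were Hep3B cells harvested after 24 hours. The first group received vehicle (DMSO) at 20% O2, the second received vehicle at 1% O2, and the third received 32-134D, an inhibitor of hypoxia-inducible factors (HIFs), at 1% O2. No culture received 32-134D at 20% O2, and the labels state no dose. The comparisons asked how hypoxia altered these mRNAs, how 32-134D altered them in hypoxic cells, and how hypoxic cells given the compound differed from normoxic cells given vehicle.

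Ribosomes are made in the nucleolus, where RNA polymerase I transcribes the ribosomal DNA into a long precursor. Guide snoRNPs then modify that precursor, box C/D particles by methylating riboses and box H/ACA particles by making pseudouridine, while the processome and assembly factors fold and cut it and load ribosomal proteins onto it. Much of a growing cell's biosynthetic capacity goes into this pathway, and hepatocytes and liver tumors rely on it to sustain secretion and growth. The present data measure mRNA of the factors and not ribosomal RNA, nucleolar proteins or ribosome number.

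The total counts ran from 6013980, in replicate 2 of vehicle at 20% O2, to 40549699 per library. CA9, a HIF target used as a check on the oxygen labels, averaged 27.9 CPM (reads per gene after scaling for library size) in vehicle at 20% O2, 579.9 in vehicle at 1% O2 and 56.6 with 32-134D. Of 9 hepatocyte markers, ALB averaged between 8116 and 9536 CPM in the 3 groups, and 2 of the 9, APOB and AFP, were called lower in hypoxia. With 32-134D, 1 of the 9 was called higher and 3 lower than in hypoxic vehicle, and all 9 lay below vehicle at 20% O2 with a median log2 difference of -0.48. In contrast, 4 of 8 markers of other cells, PTPRC, CDH5, COL3A1 and ACTA2, had 7 counts or fewer over the 9 libraries. LYZ, a myeloid marker, averaged 27.2, 8.62 and 17.5 CPM in the 3 groups, and COL1A1, a fibroblast marker, 6.65, 3.62 and 7.05 CPM. Of the 4 such markers tested, 3 were called lower in hypoxia and 3 higher with 32-134D, and their part in the results below was not tested. Replicate 3 of 32-134D stood apart from the other libraries of its group, at a chi-square of 36.4 and 32.5 for each degree of freedom against replicates 1 and 2, while those differed from each other by 1.998. Its ALB level was 5948 CPM, against 9338 and 9061 CPM in replicates 1 and 2. For the genes chosen above (the members), called values with 32-134D are given with and without replicate 3 of that group. So are other named values of members that moved by over 1.5 times without that replicate. Log2 fold changes with 32-134D of single genes outside the members include that replicate and are not given without it.

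The promoters of 8 members are shown first, since HIFs and related factors act through short DNA elements. HIFs bind the core sequences ACGTG and GCGTG, and factors of the basic helix-loop-helix family bind the E-box CACGTG, which contains ACGTG and reads the same on both strands. Each sequence covers 250 bases before and 50 bases after a RefSeq start on GRCh38.p14 and is written along the gene's own strand. Capitals mark each ACGTG or GCGTG on either strand, so that CACGT and CACGC are matches on the opposite strand. The first 6 represent the 6 roles, by the largest change in the role's own direction, and POLR1A and UTP20 were added after their values were seen.
FBL, chr19:39846330-39846629, minus strand: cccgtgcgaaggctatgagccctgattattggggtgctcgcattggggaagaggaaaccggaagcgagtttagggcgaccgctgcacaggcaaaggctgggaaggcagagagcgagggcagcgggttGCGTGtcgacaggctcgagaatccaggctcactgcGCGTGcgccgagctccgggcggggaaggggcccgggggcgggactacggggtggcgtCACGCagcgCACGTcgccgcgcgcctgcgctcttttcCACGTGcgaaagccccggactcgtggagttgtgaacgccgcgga
NOP10, chr15:34343087-34343386, minus strand: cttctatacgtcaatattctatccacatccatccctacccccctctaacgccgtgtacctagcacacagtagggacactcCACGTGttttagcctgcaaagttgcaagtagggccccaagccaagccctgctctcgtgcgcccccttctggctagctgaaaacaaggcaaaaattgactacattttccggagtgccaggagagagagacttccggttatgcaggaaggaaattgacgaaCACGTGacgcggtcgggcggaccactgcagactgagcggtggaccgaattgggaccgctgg
RRN3, chr16:15094286-15094585, minus strand: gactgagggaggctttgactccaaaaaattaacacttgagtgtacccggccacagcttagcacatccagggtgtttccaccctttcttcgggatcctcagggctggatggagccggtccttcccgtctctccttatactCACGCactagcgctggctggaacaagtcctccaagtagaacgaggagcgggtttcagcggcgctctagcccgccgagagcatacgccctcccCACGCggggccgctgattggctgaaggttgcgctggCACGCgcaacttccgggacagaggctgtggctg
WDR43, chr2:28894417-28894716, plus strand: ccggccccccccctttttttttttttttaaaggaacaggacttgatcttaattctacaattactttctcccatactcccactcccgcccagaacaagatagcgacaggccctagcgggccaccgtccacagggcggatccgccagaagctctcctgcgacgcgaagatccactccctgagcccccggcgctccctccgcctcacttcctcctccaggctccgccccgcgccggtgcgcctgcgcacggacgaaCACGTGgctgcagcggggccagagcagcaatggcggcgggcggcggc
NOP16, chr5:176388549-176388848, minus strand: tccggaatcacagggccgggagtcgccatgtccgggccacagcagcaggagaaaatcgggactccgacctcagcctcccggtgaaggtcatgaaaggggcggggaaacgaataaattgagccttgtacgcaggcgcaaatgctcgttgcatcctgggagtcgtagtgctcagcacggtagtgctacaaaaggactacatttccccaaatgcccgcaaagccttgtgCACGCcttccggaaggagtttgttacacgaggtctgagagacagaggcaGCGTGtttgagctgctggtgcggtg
NPM1, chr5:171387599-171387898, plus strand: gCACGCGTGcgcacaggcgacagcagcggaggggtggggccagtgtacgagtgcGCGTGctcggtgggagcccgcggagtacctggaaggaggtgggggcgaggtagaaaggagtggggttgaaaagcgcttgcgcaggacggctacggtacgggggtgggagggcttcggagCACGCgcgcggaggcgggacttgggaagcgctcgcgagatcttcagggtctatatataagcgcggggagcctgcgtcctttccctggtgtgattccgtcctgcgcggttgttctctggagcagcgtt
POLR1A, chr2:86105837-86106136, minus strand: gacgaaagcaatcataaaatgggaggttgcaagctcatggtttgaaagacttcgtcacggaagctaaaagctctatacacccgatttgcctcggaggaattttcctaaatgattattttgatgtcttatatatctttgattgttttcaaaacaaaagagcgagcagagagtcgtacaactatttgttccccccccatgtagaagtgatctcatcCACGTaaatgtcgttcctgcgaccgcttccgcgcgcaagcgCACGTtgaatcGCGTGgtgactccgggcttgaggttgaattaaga
UTP20, chr12:101279855-101280154, plus strand: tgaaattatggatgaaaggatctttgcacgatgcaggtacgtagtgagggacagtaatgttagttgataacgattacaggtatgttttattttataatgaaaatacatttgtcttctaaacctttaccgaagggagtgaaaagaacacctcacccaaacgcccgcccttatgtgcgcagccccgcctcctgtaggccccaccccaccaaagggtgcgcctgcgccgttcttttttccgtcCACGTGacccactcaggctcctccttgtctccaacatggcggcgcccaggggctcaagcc

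An entry in the promoter table was matched for 30 of the 35 members, the exceptions being TCOF1, NOLC1, RRP12, BOP1 and NOP58. A gene was counted for a motif if any of its listed promoters held it, and the promoter printed above is the first listed. The E-box CACGTG lay in 13 of the 30 members (43.3%), compared with 12.2% of 11730 protein-coding genes tested, counted alike. Of all 35116 promoters of the same length, counted singly and so not a like share, 7.26% held it. The E-box was present in the promoters of FBL, NOP10, WDR43 and UTP20 printed above, and absent from those of RRN3, NOP16, NPM1 and POLR1A. ACGTG on either strand lay in 17 of 30 members (56.7%), compared with 31.2% of the coding genes and 21.4% of all single promoters. GCGTG lay in 22 of 30 members (73.3%), compared with 56.2% and 36.5%. A match describes letters in a window and not a bound site.

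In vehicle at 20% O2, the members spanned a wide range of levels. Per kilobase of the longest annotated transcript, NPM1 and NCL, the nucleolar chaperone nucleophosmin and the rRNA-binding protein nucleolin, were highest at 251 and 198 CPM per kb. FBL, the methyltransferase of box C/D snoRNPs, followed at 169 CPM per kb, and NOP10, the smallest protein of the H/ACA particle, at 167 CPM per kb. The lowest were UTP15 at 3.06 and NOP2 at 1.98 CPM per kb. NOP2, a methyltransferase of large-subunit rRNA, had only 1475 counts over the 9 libraries and shared 2550 exon bases on the same strand with a read-through gene, and how reads in those bases were counted is not given in the sources used here. Levels per kb depend on which transcript is used and rank genes only roughly.

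Members were called in both directions in hypoxia. Of the 35 members, 5 were called higher in vehicle at 1% than at 20% O2 (14.3%) and 2 were called lower (5.71%), where a call needed a Benjamini-Hochberg FDR below 0.05 in edgeR's quasi-likelihood test and a fold change above 1.5. The background over all 22672 genes tested was 19.5% called higher and 20.3% called lower, so the share of members called was not above that of all genes in either direction. The 5 higher members were RRN3, WDR43, POLR1C, WDR75 and NOP10, and the 2 lower members were UTP20 and POLR1A. The median log2 fold change was 0.19 for the members and 0.00 for all genes, and member values ran from -1.41 for UTP20 to 1.49 for RRN3. In bulk RNA, fewer cells with an mRNA and less of it per cell cannot be told apart. With libraries scaled by total count alone, which moved the median of all genes by -0.21, 1 member was called higher and 5 lower. The direction of the small changes thus depends on the scaling, whereas RRN3, UTP20 and POLR1A kept their calls. The share of all genes called under that scaling is not given here, so these counts have no like background.

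A further 15 members passed the FDR with differences under 1.5-fold. By FDR alone, 16 members were higher and 6 were lower in hypoxia, against 27.9% and 25.6% of all genes. With scaling by total count the members numbered 10 and 11, and the share of all genes under that scaling is not given here. The libraries of the 2 vehicle groups did not overlap for 19 members that were higher and 7 that were lower, against 32.3% and 28.1% of all genes.

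**Figure D1:**
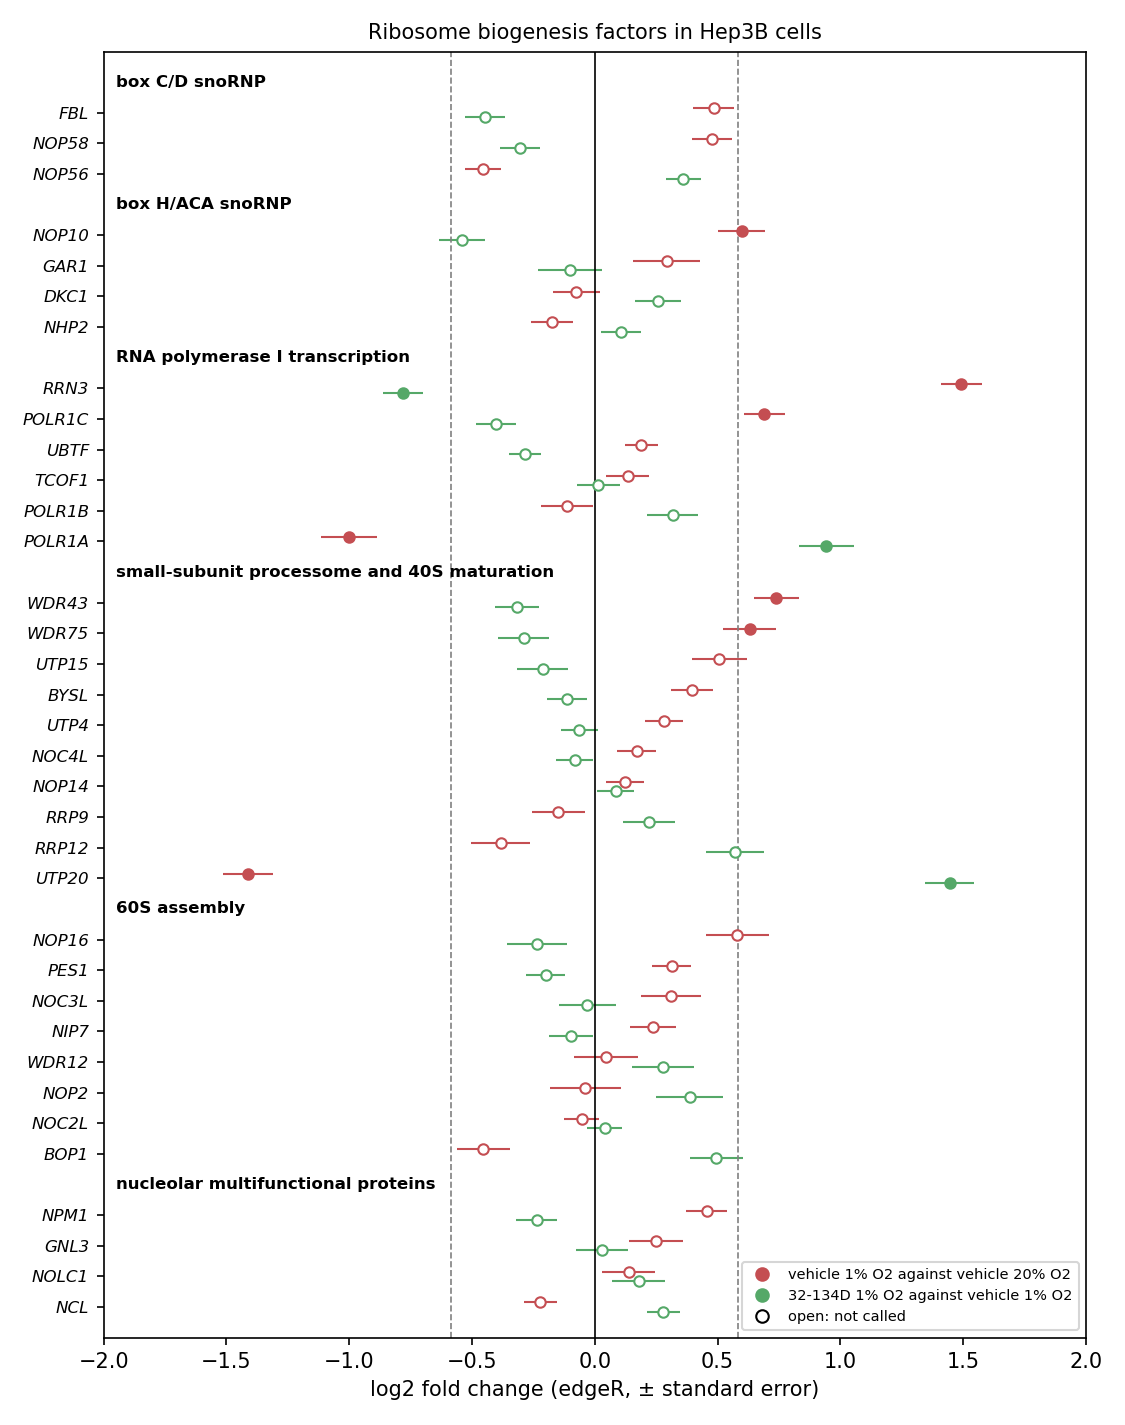
Log2 fold change (x axis, ± SE from edgeR) of each of the 35 members, in blocks by role, for vehicle at 1% against 20% O2 (red) and for 32-134D against vehicle at 1% O2 (green), where filled points passed both thresholds and dashed lines mark a 1.5-fold change. RRN3 lies farthest to the right and UTP20 and POLR1A farthest to the left in red, and their green points lie on the opposite side of 0.

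The largest rise and one of the largest falls were both in the RNA polymerase I group. RRN3 (ENSG00000085721; chr16:15060022-15094317, minus strand) encodes the factor that joins the polymerase to the promoter-bound complex. Its level was 50.9, 42.1 and 48.1 CPM in vehicle at 20% O2 and 144, 129.6 and 126 CPM in vehicle at 1% O2. Every hypoxic library was above every normoxic one, with a log2 fold change of 1.49 ± 0.08 (SE; FDR 1.99e-09). The table lists 4 pseudogene copies of RRN3, which held 15.4% as many counts as RRN3 itself, and their summed level was 19.8 ± 2.09 CPM (SD, n = 3) in vehicle at 20% O2 and 8.80 ± 0.549 CPM (SD, n = 3) in vehicle at 1% O2. The copies therefore moved opposite to RRN3, and how reads that match both were assigned is not given in the sources used here.

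POLR1A (ENSG00000068654; chr2:86020216-86106155, minus strand) encodes the largest, catalytic subunit of the polymerase. Its level was 118, 150.3 and 157 CPM at 20% O2 and 78.0, 67.9 and 66.2 CPM at 1% O2, and the groups did not overlap. The log2 fold change was -1.001 ± 0.11 (SE; FDR 2.54e-06). POLR1B, the second-largest subunit, was at 46.0, 54.3 and 54.0 CPM and then 53.2, 43.8 and 45.2 CPM, a log2 difference of -0.11 ± 0.11 (SE; FDR 0.386) that did not pass the test.

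POLR1C (ENSG00000171453; chr6:43509702-43562419, plus strand) encodes a subunit that RNA polymerases I and III share. It rose from 26.5, 28.0 and 25.0 CPM to 44.1, 41.3 and 41.8 CPM, a log2 fold change of 0.69 ± 0.08 (SE; FDR 5.66e-06). Its exons overlap those of 3 coding genes on the opposite strand, LRRC73, YIPF3 and XPO5, which were at 1.26, 0.56 and 0.27 on the log2 scale. The strand setting of the counting is not given in the sources used here. UBTF, which binds and bends the ribosomal DNA promoter, and TCOF1, the nucleolar protein treacle, differed by 0.19 and 0.13, and UBTF passed the FDR (0.0263) but not the fold threshold and was at -0.03 with scaling by total count. The 2 called subunits of the polymerase, POLR1C and POLR1A, thus lay on opposite sides of 0.

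**Figure D2:**
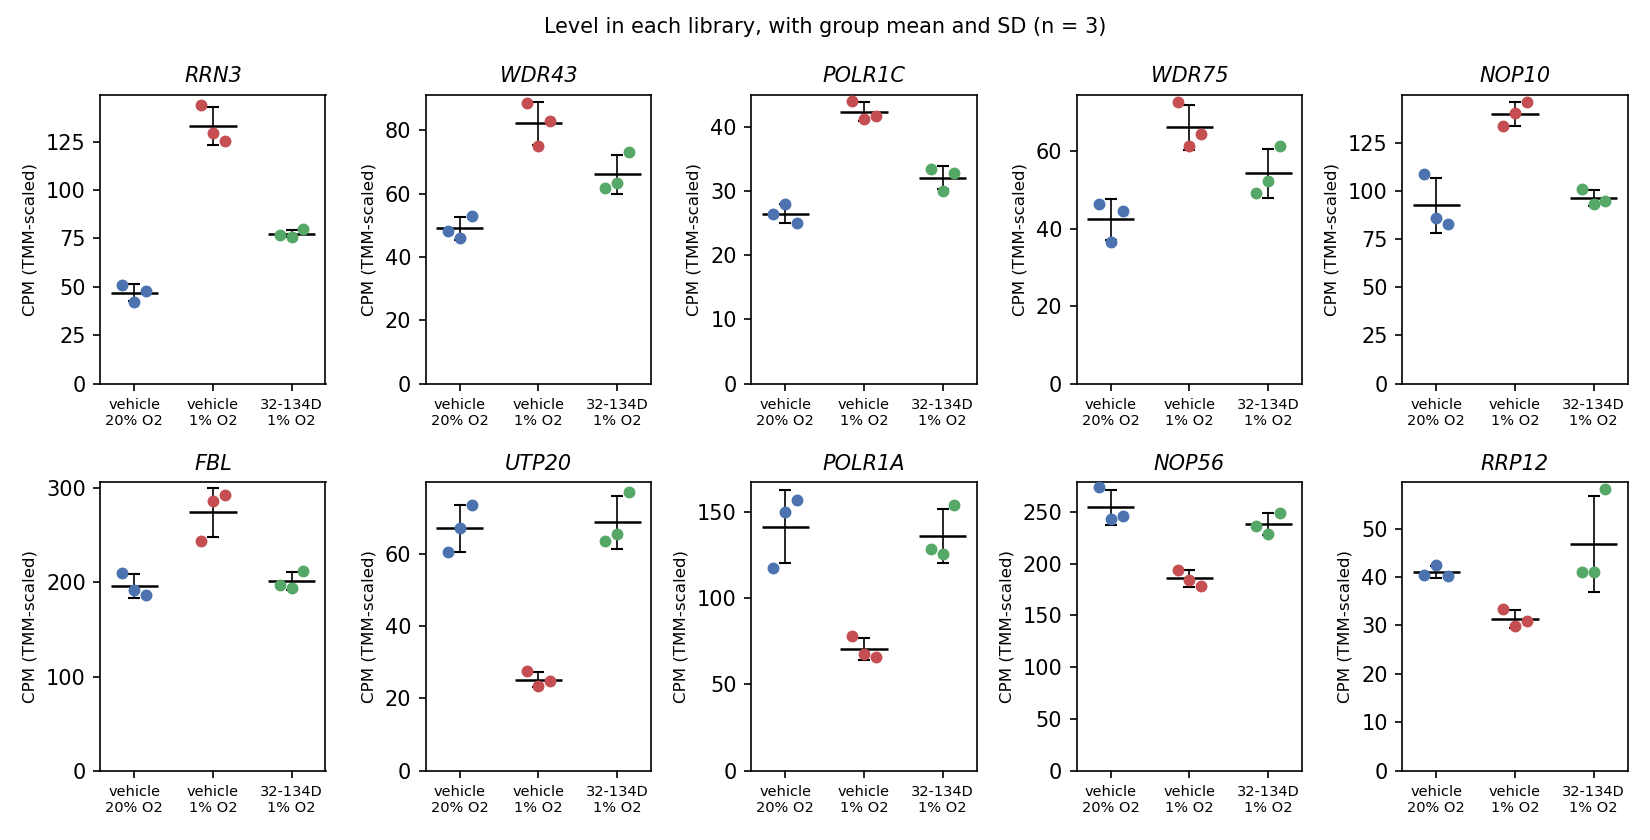
TMM-scaled CPM (y axis, from 0) of 10 members in each of the 9 libraries, with black lines at the group mean and bars for the SD (n = 3). The top row holds the 5 members called higher in hypoxia, and UTP20 and POLR1A in the bottom row lie close to the level of vehicle at 20% O2 with 32-134D, whereas RRN3 lies between the 2 vehicle groups.

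In the small-subunit group of 10, 2 members rose and 1 fell. WDR43 (ENSG00000163811; chr2:28894643-28948222, plus strand) and WDR75 (ENSG00000115368; chr2:189441433-189475565, plus strand) belong with UTP4 and UTP15 to the subcomplex that loads onto the nascent transcript. WDR43 was at 48.3, 45.9 and 52.8 CPM in vehicle at 20% O2 and 88.6, 75.1 and 82.9 CPM in vehicle at 1% O2, a log2 fold change of 0.74 ± 0.09 (SE; FDR 6.71e-06). WDR75 was at 46.3, 36.4 and 44.4 CPM and then 72.7, 61.3 and 64.5 CPM, a log2 fold change of 0.63 ± 0.11 (SE; FDR 1.39e-04). The vehicle groups did not overlap for either gene. UTP15 and UTP4 were also above their normoxic level, by 0.51 ± 0.11 (SE; FDR 0.00124) and 0.28 ± 0.08 (SE; FDR 0.00652), both below the fold threshold. With scaling by total count, UTP15 was at 0.29 and UTP4 at 0.07.

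UTP20 (ENSG00000120800; chr12:101280109-101386616, plus strand), a very large scaffold protein of the processome, went the other way. Its level was 60.6, 67.2 and 73.6 CPM at 20% O2 and 27.5, 23.5 and 24.7 CPM at 1% O2. All 3 hypoxic libraries lay below all 3 normoxic ones, with a log2 fold change of -1.41 ± 0.10 (SE; FDR 2.41e-08), the largest fall among the members. RRP12, an export and maturation factor of pre-ribosomes, was at 40.5, 42.4 and 40.2 CPM and 33.4, 29.8 and 30.9 CPM, a difference of -0.38 ± 0.12 (SE; FDR 0.0150) that stayed under the fold threshold. BYSL, which binds the pre-small subunit, was at 0.40 (FDR 0.00104). RRP9 of the U3 snoRNP, NOP14 and its partner NOC4L differed by -0.15, 0.12 and 0.17 and did not pass the FDR.

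The mRNAs of the box C/D core differed in direction. In that particle, FBL was at 210.1, 192 and 187 CPM and then 244, 286 and 293 CPM, and NOP56, one of the paired scaffold proteins, was at 274, 244 and 246 CPM and then 194, 184 and 179 CPM. FBL differed by 0.48 ± 0.08 (SE; FDR 1.46e-04) and the other scaffold protein, NOP58, by 0.48 ± 0.08 (SE; FDR 1.64e-04), whereas NOP56 differed by -0.46 ± 0.07 (SE; FDR 7.37e-05). All 3 passed the FDR and none reached a 1.5-fold change, so the proteins that form one particle had mRNAs that differed in direction under each scaling. In the H/ACA particle, NOP10 (ENSG00000182117; chr15:34341713-34343177, minus strand) rose from 109, 85.9 and 82.6 CPM to 134, 140.3 and 146 CPM, a log2 fold change of 0.60 ± 0.09 (SE; FDR 7.37e-05). DKC1, the pseudouridine synthase, NHP2 and GAR1 were at -0.08, -0.17 and 0.29 and did not pass the FDR.

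None of the 8 factors of large-subunit assembly was called in hypoxia by edgeR with both thresholds, while 4 were higher and 1 lower at an unadjusted p below 0.05, against 30.0% and 28.4% of all genes, and DESeq2 found 2 higher and 1 lower by FDR alone, against 25.0% and 25.3%. Within the complex of PES1, BOP1 and WDR12, which acts in maturation of the large-subunit precursor, PES1 was at 0.31 (FDR 0.00393), BOP1 at -0.45 (FDR 0.00233) and WDR12 at 0.05 (FDR 0.792). NOP16 was at 0.58 ± 0.13 (SE; FDR 0.00138), just under the fold threshold, and its exons overlap 2 genes on the opposite strand that were at -1.12 (ARL10) and 0.21 (HIGD2A). NOC3L and NIP7 were at 0.31 and 0.24 and passed the FDR, and NOC2L and NOP2 were at -0.05 and -0.04 and did not.

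The 4 nucleolar proteins with several roles stayed within a 1.5-fold change. NPM1 was at 499, 404 and 421 CPM in vehicle at 20% O2 and 578, 602 and 636 CPM in vehicle at 1% O2, a difference of 0.46 ± 0.08 (SE; FDR 3.07e-04). NCL, its abundant partner in the nucleolus, was at 801, 789.5 and 812 CPM and then 703, 683 and 674 CPM, a difference of -0.22 ± 0.07 (SE; FDR 0.0108). These are the members with the highest levels, their vehicle groups did not overlap, and they lay on opposite sides of 0. NOLC1, a snoRNP chaperone, and GNL3, the GTPase nucleostemin, were at 0.14 and 0.25 and did not pass the FDR.

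The rises other than that of RRN3 were between 0.60 and 0.74 on the log2 scale, near the 1.5-fold threshold. NOP10 and WDR75 fell short of it with DESeq2 (0.55 and 0.58), and only RRN3 was called higher with scaling by total count. The number called higher was 3 in place of 5 without replicate 2 of vehicle at 20% O2, and also without replicate 1 of 32-134D, which enters the shared fit.

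In hypoxic cells, 32-134D raised UTP20 and POLR1A and lowered RRN3, and no other member was called. These were 2 members higher (5.71%) and 1 lower (2.86%), against 16.2% and 13.7% of all genes. By FDR alone, 9 members were higher and 10 lower, against 21.9% and 25.5% of all genes. The median log2 difference was -0.03 for the members and -0.01 for all genes, and it ran from -0.78 to 1.44. With scaling by total count, which moved the median of all genes by 0.17, 4 members were called higher and 1 lower. Shares of all genes under that scaling are not given here, either for these calls or for the numbers by FDR alone. This comparison and the hypoxia comparison share the 3 libraries of vehicle at 1% O2, so opposite signs in them are partly built in, and the values are therefore given by library.

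UTP20 was at 63.7, 65.6 and 77.3 CPM with 32-134D, against 27.5, 23.5 and 24.7 CPM with vehicle at 1% O2, a log2 fold change of 1.44 ± 0.10 (SE; FDR 4.54e-08). POLR1A was at 129, 125 and 154 CPM, against 78.0, 67.9 and 66.2 CPM, a log2 fold change of 0.94 ± 0.11 (SE; FDR 7.03e-06). For both genes every library with the compound lay above every hypoxic vehicle library and within or near the span of vehicle at 20% O2. RRN3 was at 76.8, 76.0 and 79.8 CPM, against 144, 129.6 and 126 CPM, and fell by 0.78 ± 0.08 (SE; FDR 1.78e-06) on the log2 scale. Its pseudogene copies summed to 15.97 ± 0.610 CPM (SD, n = 3) with the compound.

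The other members that were called higher in hypoxia were below their hypoxic vehicle level with the compound, by less than 1.5-fold. NOP10 was at 101, 93.0 and 94.5 CPM (log2 difference -0.54 ± 0.09 SE, FDR 2.14e-04) and POLR1C at 33.5, 30.1 and 32.8 CPM (log2 difference -0.40 ± 0.08 SE, FDR 7.67e-04). WDR43 was at 61.8, 63.5 and 73.2 CPM (log2 difference -0.32 ± 0.09 SE, FDR 0.00866) and WDR75 at 49.3, 52.2 and 61.3 CPM (log2 difference -0.29 ± 0.10 SE, FDR 0.0320). All 4 passed the FDR, and the compound libraries lay wholly below the hypoxic vehicle libraries for each. For WDR75 the nearest libraries were both at 61.3 CPM to 3 digits. With scaling by total count, NOP10, POLR1C, WDR43 and WDR75 were at -0.35, -0.22, -0.13 and -0.10. With a trend over transcript length taken out, NOP10 and POLR1C passed the FDR, and WDR43 (FDR 0.0503) and WDR75 (FDR 0.317) did not.

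The box C/D core mRNAs again differed in direction. FBL was at 198, 194 and 213 CPM with the compound (log2 difference -0.45 ± 0.08 SE, FDR 3.61e-04), NOP58 at 108, 99.8 and 106 CPM (log2 difference -0.30 ± 0.08 SE, FDR 0.00625) and NOP56 at 236, 229 and 249 CPM (log2 difference 0.36 ± 0.07 SE, FDR 7.22e-04). The FBL libraries with the compound lay below all 3 hypoxic vehicle libraries and those of NOP56 lay above them. DKC1 was at 0.26 ± 0.09 (SE; FDR 0.0340) and at 0.14 without replicate 3 of the compound group, and GAR1 and NHP2 did not pass the FDR.

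RRP12 was the member closest to a further call, at 41.1, 41.1 and 58.2 CPM with the compound against 33.4, 29.8 and 30.9 CPM without it, a difference of 0.57 ± 0.12 (SE; FDR 9.42e-04). Replicate 3 with the compound was well above the other 2 libraries, and the difference was 0.39 without that library. RRP12 passed both thresholds at 0.63 with DESeq2 and with median-of-ratios size factors, and at 0.76 by total count. It also passed with at least 10 counts in every library, in the fit of 2 groups and with a trend over transcript length taken out. With a replicate block or a filter of at least 1 count in all, it did not. BOP1 was at 0.50 ± 0.11 (SE; FDR 0.00133) and 0.36 without that library, and NOP2 at 0.39 ± 0.14 (SE; FDR 0.0289). NCL and UBTF, both past the FDR, were at 0.28 and -0.28, and NPM1 was at -0.24 (FDR 0.0307). By total count, NCL, UBTF and NPM1 were at 0.47, -0.10 and -0.05.

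**Figure D3:**
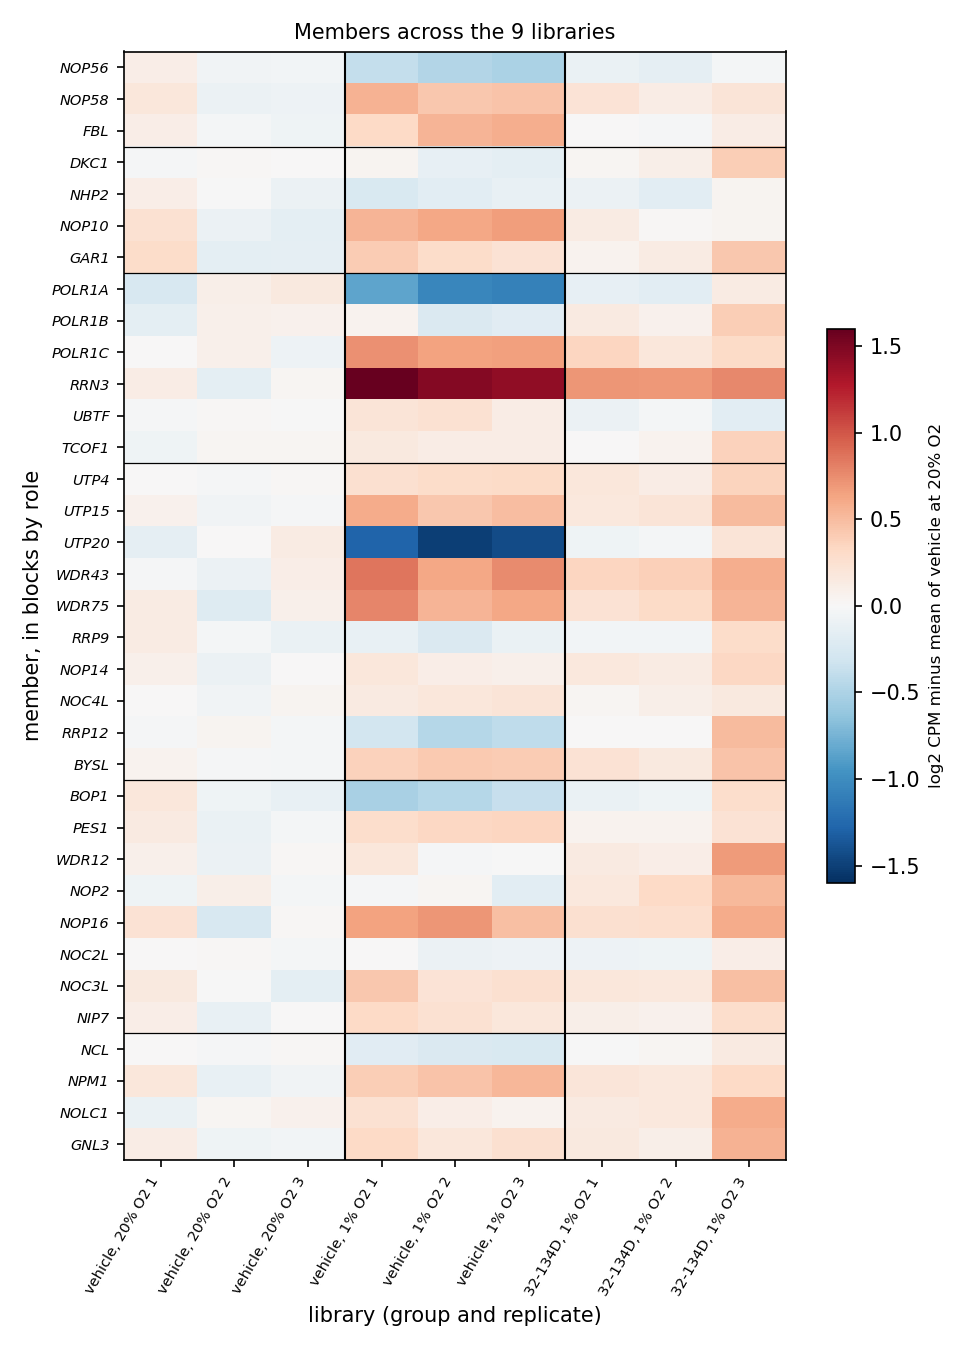
Log2 CPM of each member (rows, in blocks by role) in each of the 9 libraries (columns) minus the mean of vehicle at 20% O2, on a color scale from -1.6 (blue) to 1.6 (red). RRN3 is the darkest red and UTP20 and POLR1A the darkest blue in vehicle at 1% O2, and the column of replicate 3 of 32-134D is redder than the 2 beside it.

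Replicate 3 of 32-134D had the highest level of its group for 31 of the 35 members. Summed over the members, expression was 3911, 3896 and 4442 CPM in the 3 libraries with the compound, 3759 ± 119.8 CPM (SD, n = 3) in vehicle at 20% O2 and 4049 ± 43.7 CPM (SD, n = 3) in vehicle at 1% O2. WDR12 was at 48.2, 46.9 and 69.7 CPM, NOLC1 at 129, 131 and 176 CPM and GNL3 at 80.7, 76.9 and 107 CPM in replicates 1, 2 and 3 with the compound. The median log2 difference of the members from vehicle at 20% O2 was 0.14 and 0.09 in replicates 1 and 2 and 0.33 in replicate 3, while that of all genes was between 0.02 and 0.03 in the 3 libraries. Without replicate 3, 7 members were higher and 13 lower by FDR alone against hypoxic vehicle. The share of all genes in that fit is not given here, so these counts have no like background. In the same fit, UTP20, POLR1A and RRN3 were at 1.35, 0.84 and -0.80.

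Against vehicle at 20% O2, hypoxic cells given 32-134D differed in 1 member. RRN3 was at 76.8, 76.0 and 79.8 CPM with the compound and 50.9, 42.1 and 48.1 CPM in normoxic vehicle, a log2 fold change of 0.71 ± 0.08 (SE; FDR 7.66e-05), and the groups did not overlap. Without replicate 3 of 32-134D it was at 0.68. This was 1 of 35 members higher (2.86%) and 0 lower, against 3.0% and 0.516% of all genes. At an unadjusted p below 0.05, edgeR found 15 members higher and 0 lower, against 14.7% and 9.91% of all genes, and DESeq2 found 6 higher and 0 lower by FDR alone, against 9.65% and 3.63%. By FDR alone in edgeR, WDR43 (log2 difference 0.42 ± 0.09 SE, FDR 0.00881), POLR1C (log2 difference 0.29 ± 0.08 SE, FDR 0.0428) and BYSL (log2 difference 0.28 ± 0.09 SE, FDR 0.0483) were also higher, against 7.81% of all genes, and 0 members were lower, against 2.44%.

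The members lay at different distances from the normoxic level. UTP20 and POLR1A, which fell in hypoxia, were at 0.03 and -0.06 against normoxic vehicle, with SEs of 0.10 and 0.11. Without replicate 3 of 32-134D they were at -0.06 and -0.16. NOP10 and FBL were at 0.06 and 0.04, FBL at -0.01 without that library, and NOP56 at -0.10. WDR75 was at 0.34 ± 0.11 (SE; FDR 0.0586), and its mean of 54.3 CPM lay between 42.4 and 66.2 CPM in the vehicle groups. A difference that misses the threshold does not show equal levels. Over the 35 members, 30 were above 0 and the median was 0.19, compared with 26 above 0 and a median of 0.08 without replicate 3 of 32-134D. Over all genes, 11261 of 22672 were above 0 and the median was -0.003, or -0.01 without that library. The members share the same libraries and are not independent.

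Both members called lower in hypoxia had long transcripts. UTP20 and POLR1A, with longest annotated transcripts of 9025 and 12749 bases, were the 2 longest, followed by WDR12 at 8100 bases, which was at 0.05 in hypoxia. The correlation of log2 fold change with log2 length was -0.41 (Pearson) and -0.34 (Spearman) over the 35 members in hypoxia, which share libraries and are not independent. Without UTP20 and POLR1A it was -0.13 and -0.22 over 33 members, and over 14862 protein-coding genes it was -0.13 and -0.15. With the compound it was 0.54 and 0.43 over the 35 members, and 0.32 and 0.31 without UTP20 and POLR1A. Over the coding genes it was 0.18 and 0.21 with the compound. Over the 127 other ribosome biogenesis factors described below, it was -0.31 and -0.28 in hypoxia and 0.37 and 0.32 with the compound. In replicate 1 of vehicle at 20% O2, POLR1A and UTP20 had their lowest normoxic levels, at 118 and 60.6 CPM. The members next in length after WDR12 were TCOF1, POLR1B and UBTF, at 5095, 5059 and 4997 bases, and they were at 0.13, -0.11 and 0.19 in hypoxia. APOB, a hepatocyte marker from outside the members with a longest transcript of 14121 bases, was at -3.47 in hypoxia and 3.12 with the compound. The part of length in the change of APOB was not tested.

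After the trend of fold change over length in all genes was taken out, an alternative chosen after seeing the data, UTP20 was at -1.11 in hypoxia and 1.14 with the compound and kept both calls. POLR1A was at -0.47 and 0.45 and kept neither, while RRN3 was at 1.37 and -0.69 and kept both. NOP56 and BOP1 became lower in hypoxia at -0.64 each. The part of length in the fall of POLR1A was not tested beyond this.

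**Figure D4:**
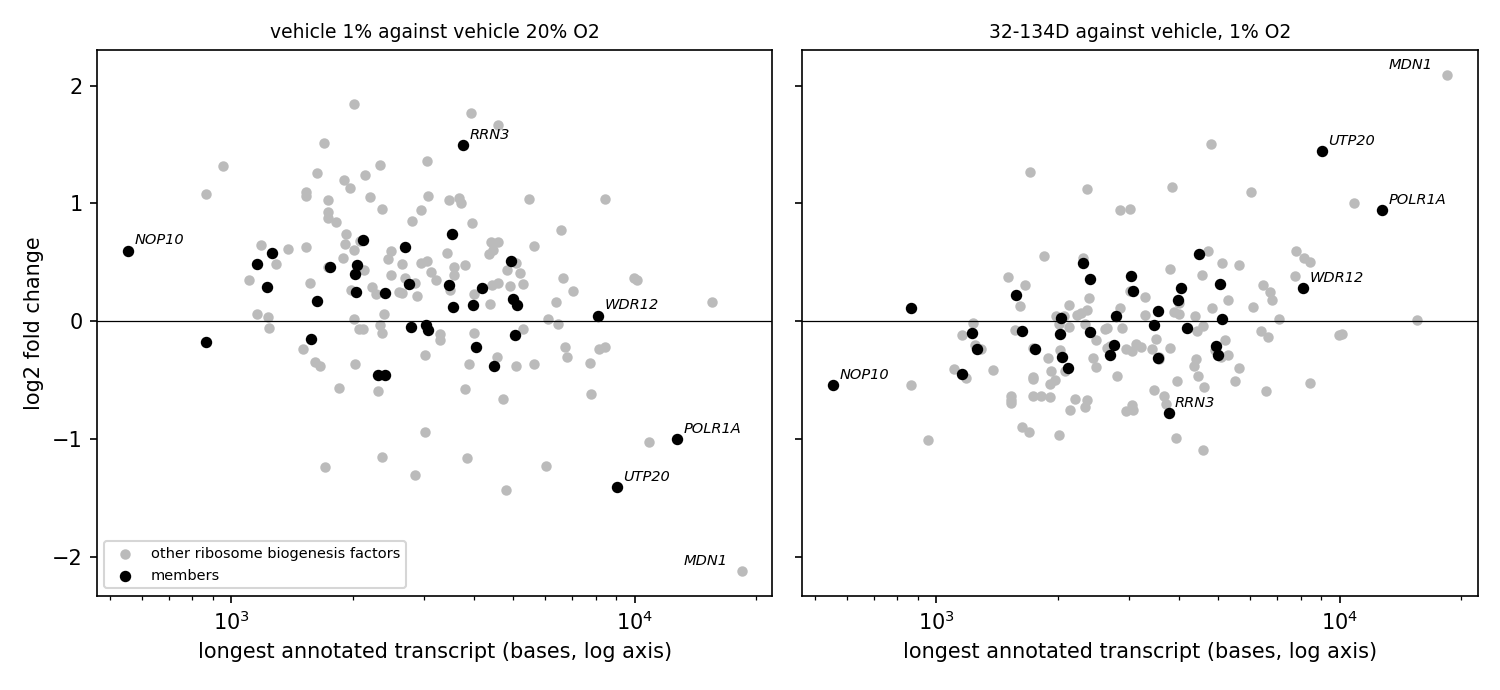
Log2 fold change (y axis) against the length of the longest annotated transcript (x axis, log scale) for the 35 members (black) and 127 other ribosome biogenesis factors (gray), for hypoxia (left) and for 32-134D in hypoxia (right). POLR1A, UTP20 and MDN1, at 12749, 9025 and 18413 bases, lie at the bottom right in hypoxia and at the top right with the compound, and RRN3, at 3762 bases, lies apart from them.

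A list of 127 other ribosome biogenesis factors held further genes of the pathway. In hypoxia, 42 of them were called higher (33.1%) and 12 lower (9.45%), with a median of 0.35, beside 19.5%, 20.3% and 0.00 for all genes. The leading rises were RSL24D1, which acts on the pre-large subunit, RIOK2, a kinase of the pre-small subunit, and POLR1D, a further subunit shared by RNA polymerases I and III. RSL24D1 was at 89.1, 60.5 and 59.8 CPM in vehicle at 20% O2 and 257, 248 and 246 CPM in vehicle at 1% O2 (log2 difference 1.84 ± 0.13 SE, FDR 2.46e-08). RIOK2 and POLR1D were at 1.76 and 1.67. POLR1C, at 0.69, is its partner in the shared core of these polymerases, and the vehicle groups did not overlap for either gene.

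The leading falls were MDN1, the giant ATPase that remodels the pre-large subunit, MYBBP1A, a nucleolar protein that binds the polymerase I machinery, and RRS1, which helps to load the 5S particle. MDN1 was at 102, 150 and 162 CPM and then 35.8, 29.8 and 29.4 CPM (log2 difference -2.12 ± 0.16 SE, FDR 3.04e-08), and MYBBP1A and RRS1 were at -1.44 and -1.24. RRS1, with a longest transcript of 1706 bases, was among the shorter genes of the list. With the compound, 11 of the 127 were higher (8.66%) and 22 lower (17.3%), against 16.2% and 13.7% of all genes. With scaling by total count they were 18 and 6, and the share of all genes under that scaling is not given here. MDN1 was at 2.09, MYBBP1A at 1.50 and RRS1 at 1.26, while RSL24D1 was at -0.97, RIOK2 at -0.99 and POLR1D at -1.09.

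Against vehicle at 20% O2, 5 of the 127 were higher with the compound (3.94%) and 0 were lower by edgeR with both thresholds, against 3.0% and 0.516% of all genes. At an unadjusted p below 0.05, 66 were higher and 4 lower, against 14.7% and 9.91% of all genes, and DESeq2 found 40 higher and 2 lower by FDR alone, against 9.65% and 3.63%. The 5, named after their values were seen, were TAF1A, a subunit of the promoter selectivity factor of polymerase I, RIOK2, GNL2, a GTPase of the pre-large subunit, RSL24D1 and NMD3, the export adaptor of the large subunit. Their log2 fold changes were 0.63, 0.77, 0.59, 0.87 and 0.64, close in size to that of RRN3 at 0.71. All 5 had been called higher in hypoxia, as RRN3 was. These 2 comparisons share the 3 libraries of vehicle at 20% O2, so equal signs in them are partly built in.

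Some counts are shared with other genes. Exons of 13 members overlap those of a gene on the opposite strand, and without strand the reads of both cannot be told apart. NPM1 has 49 pseudogene copies in the table, which held 1.02% as many counts as NPM1 itself. The p-values measure the spread between 3 cultures of one cell line.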

How the data were processed

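RNA-seq was performed on 9 Hep3B cultures, 3 in each of 3 groups. The authors deposited raw counts per Ensembl gene (release 100), and the submitters' processing notes name FastQC, MultiQC, STAR, featureCounts, DESeq2 and GRCh38. Tool versions and the strand setting are not given in the sources used here. Columns were matched to samples by name, and groups were taken from the labels.

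Counts were scaled with TMM and tested in 1 quasi-likelihood fit of the 9 libraries with edgeR 4.0.16 in R 4.3.3. Genes whose counts summed to at least 10 were tested, 22672 in all, and Benjamini-Hochberg adjustment ran over all of them. A call needed an FDR below 0.05 and a fold change above 1.5. CPM are counts scaled to TMM-adjusted library size. The procedure was tested on simulated data in which few genes changed or a length trend was added, so that test does not bear on the choice of scaling. Positions, overlaps and lengths came from GENCODE version 29 on GRCh38, which is not the deposited release, and promoters from RefSeq on GRCh38.p14.

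The members and all lists were chosen with earlier results of these data known. Values by library are given for the 3 largest and 3 smallest log2 fold changes of each of the first 2 comparisons, for each called member and for some named beside them. From other lists, the 3 leading called genes in each direction averaging 100 or more normalized counts in the higher group are named, except that the values of 1 gene are not reported here. Pairs of replicates differed by a chi-square per degree of freedom of 1.62 to 36.4, so none was a duplicate. Alternatives were DESeq2 1.42.0, other scalings, filters and fold thresholds, fits of 2 groups, a replicate block, removal of a length trend and leaving out each library.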

Additional observations from a re-analysis of the deposited data

How the results depend on the processing

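RRN3 kept its calls in hypoxia, with 32-134D and against normoxic vehicle, and UTP20 its calls in the first 2, in every alternative that used the 1.5-fold threshold. Small changes depended on scaling and threshold, and 3 replicates and the smallest library limit precision. For the counts of calls below, the share of all genes called at both thresholds is given only for the fit described above. In hypoxia, the number of members called higher was 3 with median-of-ratios size factors, 1 with scaling by total count, 3 with DESeq2, 2 with at least 10 counts in every library, 16 without a fold threshold, 1 above 2-fold and 2 with the length trend out, and the number lower was 5 by total count and 6 without a fold threshold. Their median was 0.14 with median-of-ratios and with DESeq2, -0.0252 by total count, 0.0781 with at least 10 counts and 0.10 with the length trend out. The median of all genes moved as well, to -0.04, -0.05, -0.21, -0.01 and -0.09 in these settings, in that order. Leaving out each library gave 3 to 6 members higher and a member median of 0.13 to 0.21. The 127 other factors gave 74 higher and 24 lower without a fold threshold and 22 higher above 2-fold.

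With 32-134D in hypoxia, members called higher numbered 4 by total count, 4 with at least 10 counts, 9 without a fold threshold and 1 above 2-fold. Members lower numbered 10 without a fold threshold and 0 above 2-fold. The member median was 0.16 by total count, beside 0.17 for all genes. Leaving out each library gave 2 to 4 members higher, with 4 without replicate 3 of vehicle at 1% O2 and without replicate 1 of 32-134D. The other factors gave 18 higher and 6 lower by total count, 13 lower with at least 10 counts, 26 higher and 56 lower without a fold threshold, 7 higher and 2 lower above 2-fold, and 12 lower with the length trend out. Against normoxic vehicle, 4 members were higher without a fold threshold and 0 above 2-fold, and the other factors gave 30 higher and 2 lower without a fold threshold and 0 higher above 2-fold. Leaving out each library gave 4 to 10 higher, with 8 without replicate 1 of vehicle at 20% O2, 10 without replicate 3 of vehicle at 1% O2, 9 without replicate 1 and 8 without replicate 2 of 32-134D. The causes were not tested.

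The same replicate numbers did not deviate together (correlations from -0.18 to 0.08), so the numbers were not taken to pair the cultures, and with a replicate block 6 members were higher and 2 lower in hypoxia, 2 higher and 1 lower with 32-134D, and 1 higher against normoxic vehicle. Values under alternatives at the 1.5-fold threshold were tallied for the members that the naming rule picked (8 in hypoxia, 6 with 32-134D and 1 against normoxic vehicle). Of these, 219 kept their direction and call, 23 lost the call, 13 gained it and 0 changed direction. The alternatives that changed the fold threshold are not in this tally. Above 2-fold, RRN3 and POLR1A lost their calls with 32-134D, and RRN3 its call against normoxic vehicle. Over all 35 members, 6 changed sign in hypoxia by total count, including UBTF, which had passed the FDR, and 6 changed sign with 32-134D by total count and 6 with the length trend out, none of which had passed the FDR.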

Other observations

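RNA polymerase III makes the 5S ribosomal RNA and the transfer RNAs. Of 22 of its genes listed, 5 were called higher (22.7%) and 4 lower (18.2%) in vehicle at 1% against 20% O2, close to the 19.5% and 20.3% of all genes. BRF2, an initiation factor for polymerase III promoters of the U6 type, was at 20.6, 20.9 and 18.3 CPM and then 83.8, 84.3 and 78.1 CPM (log2 difference 2.05 ± 0.08 SE, FDR 8.12e-11), and MAF1, the repressor of polymerase III, was at 131, 126 and 121 CPM and then 324, 359 and 350.4 CPM (log2 difference 1.45 ± 0.07 SE, FDR 3.92e-10). The subunit gene POLR3C was at 1.36 on the log2 scale, whereas BRF1 and POLR3B were at -0.61 and -0.60. With 32-134D, 2 of the 22 were higher and 4 lower than in hypoxic vehicle, against 16.2% and 13.7% of all genes, with BRF2 at -1.26 and MAF1 at -1.02.

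Among 13 genes of ribosomal DNA chromatin, SIRT1, a deacetylase, rose and CHD4, a chromatin remodeler, fell in hypoxia, and no other was called (1 of 13 in each direction, against 19.5% and 20.3% of all genes). SIRT1 was at 19.1, 21.2 and 23.8 CPM and then 88.6, 86.2 and 80.6 CPM (log2 difference 1.98 ± 0.09 SE, FDR 3.27e-10), and CHD4 was at 58.2, 50.7 and 51.7 CPM and then 25.2, 24.7 and 24.8 CPM (log2 difference -1.11 ± 0.08 SE, FDR 2.32e-08). Both were also called with the compound, at -1.12 and 0.91. Of 16 genes of the nuclear exosome, which trims rRNA precursors, 7 were higher in hypoxia (43.8%, against 19.5% of all genes), led by DIS3, C1D and EXOSC3 at 0.89, 0.84 and 0.75, and MPHOSPH6 was lower at -0.74 (1 of 16, against 20.3%). With the compound 0 of the 16 were called by edgeR with both thresholds, against 16.2% higher and 13.7% lower of all genes. At an unadjusted p below 0.05, 3 were higher and 10 lower, against 25.0% and 28.2%, and DESeq2 found 3 higher and 8 lower by FDR alone, against 22.01% and 21.9%.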
